A study of Homo sapiens with 9 samples.

Results

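Genomic imprinting was examined through 10 genes outside the IGF2 locus in 3 lines of Huh-7, a human hepatocellular carcinoma cell line. The genes were the fixed set PEG3, PEG10, MEST, MEG3, SGCE, NNAT, SNRPN, CDKN1C, PLAGL1 and GRB10, each matched by symbol to 1 Ensembl identifier among the 60664 genes of the count table. The lines were the untreated wild type (WT), a line without the vault RNA vtRNA1-1 (1-1 KO) and a line without its paralog vtRNA1-2 (1-2 KO), and stranded mRNA libraries were made 3 times from each. WT and 1-1 KO cells came from another laboratory, whereas the 1-2 KO line was grown from 1 edited cell of that WT stock. Each knockout was therefore represented by 1 line, and a difference between lines cannot be told apart from a difference that arose while the lines were derived or passaged. Libraries held from 32384469 to 40760513 counts in WT, from 40455537 to 41782387 in 1-1 KO and from 39464230 to 41000063 in 1-2 KO.

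An imprinted gene is read mainly from the allele of a given parent, and the choice is written in the germ line as DNA methylation at a control region that often governs a cluster of neighbours. Imprinted genes are prominent in fetal growth, several are active in fetal liver, and some become active again in liver tumors. They fall into paternally expressed genes, which tend to favor growth (PEG3, PEG10, MEST, SGCE, NNAT, SNRPN and PLAGL1), and maternally expressed genes, which tend to restrain it (MEG3 and CDKN1C). GRB10 is imprinted in a manner that depends on the tissue and the transcript. The counts did not separate the parental alleles and methylation was not measured, so they give the total mRNA of each gene in each line.

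Of the 10 genes, 5 were on in all 3 lines (PEG10, MEST, SGCE, PLAGL1 and GRB10) and 3 were off in all 3 lines (PEG3, MEG3 and SNRPN). A gene was taken as off in a line with 3 counts or fewer in every library, and as on with more than 3 counts in every library and a mean of at least 1 CPM (counts scaled to library size). CPM values here use library sizes normalized with the TMM method of edgeR, in which 3 counts correspond to between 0.0709 and 0.0951 CPM. NNAT lay between these limits in every line. CDKN1C lay between them in WT and 1-2 KO and was on in 1-1 KO. None of the 10 genes was on in 1 line and off in another, and that number was also 0 with other limits for on and off. Over the whole table, 100 of the 13955 genes that were on in at least 1 line were off in another, a background of 0.717%. The bulk libraries cannot tell fewer expressing cells from less RNA per cell.

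The hepatic identity of the lines was checked with 8 hepatocyte genes, among them ALB and AFP. Their summed level ranged from 12456.9 to 13234.1 CPM in the WT libraries, from 27754.2 to 28653.8 CPM in 1-1 KO and from 19109.9 to 20932.4 CPM in 1-2 KO. In 1-1 KO, 7 of the 8 genes rose and 0 fell. In 1-2 KO, 4 rose and 2 fell. Of all tested genes, 32.5% were called higher and 30.9% lower in 1-1 KO (adjusted p under 0.05 in edgeR). In 1-2 KO these shares were 28.2% and 26.2%. Hepatocyte mRNAs thus also differed between the lines, and their part in the results for the imprinted genes below was not tested. The summed level of 8 markers of immune, endothelial, stromal and biliary cells ranged from 25.4 to 26.4 CPM in WT, from 22.6 to 23.7 CPM in 1-1 KO, where CDH5 was at 0, and from 26.6 to 28.0 CPM in 1-2 KO. Of these, 7 passed the filter on low counts, with 2 higher and 2 lower in 1-1 KO and 5 higher and 2 lower in 1-2 KO. The same shares of all tested genes stand beside these counts. PTPRC, among those higher in both knockouts, passed that filter only through the knockouts. KRT7, among those lower in both, passed it only through WT. The counts of called markers are therefore not read as a result about these markers. Single markers moved more than the sum. ACTA2 was at 2.78 CPM in WT, 0.0807 in 1-1 KO and 6.26 in 1-2 KO, PECAM1 at 7.57, 6.67 and 0.839 CPM, and PTPRC at 0.153, 0.522 and 0.998 CPM. VTRNA1-1 had 1 count over all 9 libraries and VTRNA1-2 had 0, so these mRNA libraries do not check the knockouts. Within a line, 1-2 KO replicate 1 stood apart, and its counts gave a chi-square over genes, divided by the degrees of freedom, of 13.6 and 14.4 against the other 1-2 KO libraries, which differed by 2.51 from each other. It had the lowest level of PEG10, MEST and GRB10 among the 1-2 KO libraries. Without it, the changes of these genes in 1-2 KO compared to WT were 0.29, 0.17 and 0.55 on the log2 scale, and 5 of the 10 genes were again called. The WT libraries, the reference for both knockouts, also differed among themselves, with values of this chi-square measure from 4.61 to 9.39 between pairs. Between pairs of 1-1 KO libraries it ranged from 1.97 to 3.21.

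The start sites of these genes differ widely in CpG content, and CpG dinucleotides are where the methylation marks of imprinting lie. RefSeq promoters (GRCh38.p14, 300 bases, 250 before and 50 after a start site) were at hand for MEST, MEG3, SNRPN, PLAGL1 and GRB10, with 22 windows in all. None was at hand for PEG3, PEG10, SGCE, NNAT and CDKN1C. The median over 35116 promoters was 14 CpG dinucleotides. Windows of 4 start sites are shown because they contrast CpG-rich with CpG-poor starts in 3 genes that were on in every line, with each CG in capitals:

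GRB10, chr7:50792825-50793124, minus strand: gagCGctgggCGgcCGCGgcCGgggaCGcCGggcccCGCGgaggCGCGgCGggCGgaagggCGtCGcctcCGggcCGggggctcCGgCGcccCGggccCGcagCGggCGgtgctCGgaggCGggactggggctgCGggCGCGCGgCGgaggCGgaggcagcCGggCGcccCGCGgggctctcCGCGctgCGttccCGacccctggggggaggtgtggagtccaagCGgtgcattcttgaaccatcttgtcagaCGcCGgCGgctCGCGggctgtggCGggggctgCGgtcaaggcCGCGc

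GRB10, chr7:50705252-50705551, minus strand: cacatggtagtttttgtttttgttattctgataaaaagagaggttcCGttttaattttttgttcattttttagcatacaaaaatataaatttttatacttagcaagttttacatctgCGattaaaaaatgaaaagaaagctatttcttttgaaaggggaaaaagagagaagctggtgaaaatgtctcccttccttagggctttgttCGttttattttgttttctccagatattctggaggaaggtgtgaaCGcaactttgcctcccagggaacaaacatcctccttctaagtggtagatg

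PLAGL1, chr6:144008210-144008509, minus strand: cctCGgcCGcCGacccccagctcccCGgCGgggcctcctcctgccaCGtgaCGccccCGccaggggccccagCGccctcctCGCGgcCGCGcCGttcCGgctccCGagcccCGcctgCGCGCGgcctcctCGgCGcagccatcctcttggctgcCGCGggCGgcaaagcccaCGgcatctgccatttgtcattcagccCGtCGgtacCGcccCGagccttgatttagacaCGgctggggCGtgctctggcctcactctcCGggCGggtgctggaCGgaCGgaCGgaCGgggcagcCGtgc

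MEST, chr7:130491835-130492134, plus strand: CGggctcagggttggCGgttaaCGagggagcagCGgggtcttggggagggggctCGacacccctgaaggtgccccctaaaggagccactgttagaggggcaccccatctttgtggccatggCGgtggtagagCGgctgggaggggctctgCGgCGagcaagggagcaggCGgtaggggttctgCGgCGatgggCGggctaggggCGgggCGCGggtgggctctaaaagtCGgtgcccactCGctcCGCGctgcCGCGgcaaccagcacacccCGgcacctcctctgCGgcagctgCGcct

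The first GRB10 window held 49 CpG dinucleotides, a number reached by 1.6% of all promoters. The downstream GRB10 window held 4, which 75.5% of promoters reach or exceed, and it had the letters TATAAA on at least 1 strand, as did 11.5% of all promoters. The PLAGL1 window held 39 (reached by 8.71%), and the annotated start of HYMAI, a paternally expressed noncoding RNA, lies within it at position 144008262. The MEST window held 25 (reached by 32.0%). The letters GGGCGG occurred on either strand in the first GRB10 window and in the PLAGL1 and MEST windows, against 45.0% of all promoters. Such matches describe letters only, and gene counts do not tell which start site was used.

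Of the 10 genes, 6 passed the filter on low counts and were tested in a fit of 17207 genes (quasi-likelihood F test of edgeR, p-values adjusted over all of these genes by Benjamini and Hochberg). Each adjusted p below comes from that test, and a gene was called with an adjusted p under 0.05. In 1-1 KO compared to WT, 3 of the 6 were upregulated (PEG10, MEST and CDKN1C) and 2 downregulated (PLAGL1 and GRB10). In 1-2 KO compared to WT, 5 were upregulated (PEG10, MEST, SGCE, CDKN1C and GRB10) and 0 downregulated. The share of all tested genes called higher was 32.5% in 1-1 KO and 28.2% in 1-2 KO, and the share called lower was 30.9% and 26.2%, so that changes of this kind were common throughout the transcriptome. Both comparisons used the same WT libraries. The 3 libraries of a line came from the same line, so p-values measure only the spread between such libraries.

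The change in size separated CDKN1C from the other 5. It was the only 1 of the 6 with a change over 1 on the log2 scale, and it passed that limit in both knockouts, where the background of genes called with such a change was 13.4% in 1-1 KO and 11.7% in 1-2 KO. When 1-2 KO was compared directly with 1-1 KO, 3 genes were higher (SGCE, PLAGL1 and GRB10) and 2 lower (PEG10 and CDKN1C), beside 33.1% and 32.2% of all tested genes. In that comparison 0 of the 6 passed a change of 1 on the log2 scale, beside 14.1% of all tested genes.

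**Figure D1:**
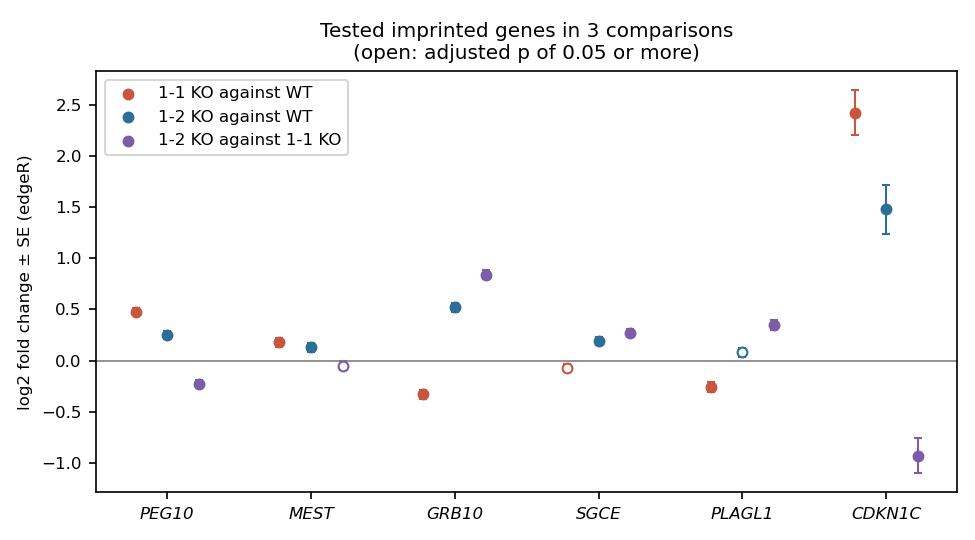
Change of the 6 tested imprinted genes on the log2 scale, with the standard error of the fit, for each knockout compared to WT and for 1-2 KO compared to 1-1 KO. Filled points have an adjusted p under 0.05 in edgeR and open points do not. CDKN1C rises most in both knockouts (2.42 and 1.48), and GRB10 lies at -0.33 in 1-1 KO and 0.52 in 1-2 KO.

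PEG10 encodes a capsid-like protein that derives from a retrotransposon and is needed in the placenta. It lies on chromosome 7 from 94656325 to 94669695 on the plus strand (ENSG00000242265, GRCh38). In WT its level was 999.6, 1014.9 and 1012.5 CPM in replicates 1, 2 and 3. In 1-1 KO the libraries were at 1384.8, 1430.0 and 1403.7 CPM, and in 1-2 KO at 1142.9, 1215.5 and 1246.7 CPM. The 3 lines did not overlap, with WT lowest and 1-1 KO highest. Ranked by CPM among all genes of the table, PEG10 stood at position 92 in WT, 38 in 1-1 KO and 55 in 1-2 KO. It was 1.39-fold higher in 1-1 KO than in WT (log2 fold change 0.48, standard error 0.037, adjusted p = 5.71e-08). The gene in 1-2 KO was 1.19-fold higher (log2 fold change 0.25, standard error 0.037, adjusted p = 4.78e-05). The direct comparison placed 1-2 KO 1.17-fold below 1-1 KO (adjusted p = 8.74e-05). Per kilobase of the annotated canonical transcript, PEG10 in WT was at 390.3 CPM, SGCE at 36.8, MEST at 30.8, PLAGL1 at 13.3, GRB10 at 11.7 and CDKN1C at 0.198 CPM. Over all annotated exons PEG10 was again at the top with 150.8 CPM per kilobase in WT, but SGCE moved below MEST, PLAGL1 and GRB10, to 3.29 CPM per kilobase, since its annotated exons cover 20876 bases and its canonical transcript 1868.

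SGCE, the neighbor of PEG10, encodes epsilon-sarcoglycan, a membrane protein whose paternal mutation causes myoclonus dystonia. The genes start next to each other on opposite strands, with SGCE from 94524204 to 94656572 (ENSG00000127990), and their annotated exons overlap by 219 bases. SGCE was at 65.7, 71.9 and 68.4 CPM in WT and at 63.5, 66.3 and 66.2 CPM in 1-1 KO. In 1-2 KO it was at 80.8, 76.9 and 77.7 CPM. WT and 1-1 KO overlapped, while every 1-2 KO library lay above both. SGCE was 1.14-fold higher in 1-2 KO than in WT (log2 fold change 0.19, standard error 0.041, adjusted p = 0.00113). Its change in 1-1 KO was -0.07 on the log2 scale, with a standard error of 0.041, and was not called (adjusted p = 0.139).

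The pair therefore differed in how it moved in 1-1 KO, where PEG10 rose and the SGCE libraries overlapped those of WT. The ratio of PEG10 to SGCE counts was 15.2, 14.1 and 14.8 in WT, and 21.8, 21.6 and 21.2 in 1-1 KO. In 1-2 KO it was 14.1, 15.8 and 16.0. The 1-1 KO libraries were all above the other lines. An exact two-sided permutation test gave p = 0.1 for 1-1 KO compared to WT, the smallest that 3 against 3 libraries allow, and p = 0.4 for 1-2 KO compared to WT.

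MEST encodes an enzyme-like protein of the alpha/beta hydrolase fold that marks growing mesoderm and adipose tissue. It lies on chromosome 7 from 130486171 to 130506465 (ENSG00000106484), far from PEG10 on the same arm. Its level was 83.0, 84.5 and 77.0 CPM in WT, and 93.6, 92.3 and 92.0 CPM in 1-1 KO. The 1-2 KO libraries were at 85.1, 91.7 and 91.5 CPM. Every knockout library was above every WT library, although the lowest of 1-2 KO exceeded the highest of WT by little. MEST was 1.14-fold higher in 1-1 KO (log2 fold change 0.18, standard error 0.042, adjusted p = 0.0017). The gene in 1-2 KO was 1.1-fold higher (log2 fold change 0.13, standard error 0.042, adjusted p = 0.0163), a call that was lost without WT replicate 3 (adjusted p = 0.114), without 1-2 KO replicate 2 (adjusted p = 0.0619) and without 1-2 KO replicate 3 (adjusted p = 0.06). The knockouts were not called against each other (log2 fold change -0.05, adjusted p = 0.31). Opposite-strand genes, MESTIT1 and COPG2 among them, together cover 27.6% of the annotated MEST exon bases.

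CDKN1C encodes p57, an inhibitor of cyclin-dependent kinases that restrains growth and is read from the maternal allele. It lies on chromosome 11 from 2883213 to 2885775 on the minus strand (ENSG00000129757), and its start site is 727.4 kb from that of IGF2, in the neighboring imprinted domain. The libraries held 14, 12 and 12 counts in WT, 93, 60 and 81 in 1-1 KO and 43, 37 and 40 in 1-2 KO. These counts correspond to a mean of 0.351 ± 0.0302 CPM in WT, 1.88 ± 0.38 CPM in 1-1 KO and 0.983 ± 0.0478 CPM in 1-2 KO (SD, n = 3 libraries). The lines did not overlap, and the spread was widest in 1-1 KO. Exact Poisson 95% intervals of the summed counts cover counting error only and, unlike the means, are scaled to raw library totals without TMM. They were 0.241 to 0.467 CPM in WT, 1.67 to 2.16 CPM in 1-1 KO and 0.826 to 1.19 CPM in 1-2 KO. CDKN1C was 5.35-fold higher in 1-1 KO than in WT (log2 fold change 2.42, standard error 0.22, adjusted p = 2.38e-07). The gene in 1-2 KO was 2.8-fold higher (log2 fold change 1.48, standard error 0.24, adjusted p = 0.000109), and 1-2 KO was 1.91-fold below 1-1 KO (adjusted p = 0.000269). The gene was thus the most weakly expressed of the tested members and the most changed. It was above the floor of 3 counts in every WT library, so its rise was not counted as a switch by the limits used here.

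GRB10 encodes an adaptor that binds activated insulin and IGF receptors and dampens their signal. It lies on chromosome 7 from 50590063 to 50793462 on the minus strand (ENSG00000106070). Its level was 63.5, 63.5 and 64.5 CPM in WT. In 1-1 KO it was 49.4, 50.3 and 53.1 CPM, and in 1-2 KO 86.6, 93.9 and 93.5 CPM. The 3 lines did not overlap, and WT lay between the knockouts. GRB10 fell 1.25-fold in 1-1 KO (log2 fold change -0.33, standard error 0.042, adjusted p = 1.15e-05) and rose 1.43-fold in 1-2 KO (log2 fold change 0.52, standard error 0.042, adjusted p = 1.18e-07). The direct comparison gave a level 1.79-fold higher in 1-2 KO than in 1-1 KO (log2 fold change 0.84, adjusted p = 4.37e-10). It was the only tested member that was called in opposite directions in the knockouts.

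PLAGL1 encodes a zinc finger transcription factor that can arrest growth, and its control region is the locus of transient neonatal diabetes. It lies on chromosome 6 from 143940300 to 144064599 on the minus strand (ENSG00000118495). Its level was 46.3, 43.9 and 40.5 CPM in WT, and 36.3, 36.0 and 36.6 CPM in 1-1 KO. The 1-2 KO libraries were at 46.8, 45.5 and 46.3 CPM. Every 1-1 KO library lay below every WT library, while WT and 1-2 KO overlapped. PLAGL1 was 1.2-fold lower in 1-1 KO (log2 fold change -0.26, standard error 0.048, adjusted p = 0.000259). Its change in 1-2 KO was 0.08 on the log2 scale, with a standard error of 0.048, and was not called (adjusted p = 0.161). Between the knockouts, 1-2 KO was 1.27-fold higher (adjusted p = 1.83e-05).

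The genes that were off had almost no reads in any line. PEG3, a zinc finger transcription factor gene on chromosome 19 (56810077 to 56840728, ENSG00000198300), had 1 count in 1-1 KO replicate 2 and 0 in the other libraries. MEG3, a maternally expressed long noncoding RNA on chromosome 14 (100779410 to 100861031, ENSG00000214548) that is silenced in many tumors, had 1 count in 1-2 KO replicate 2 and 0 elsewhere. SNRPN, which encodes a core protein of the spliceosome and lies in the Prader-Willi domain on chromosome 15 (24823637 to 24978723, ENSG00000128739), likewise had 1 count in 1-2 KO replicate 2 and 0 elsewhere. Each of the 3 thus had 1 count among the 354992970 of the 9 libraries, which says only that any level lay under the floor of these libraries.

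For SNRPN, the overlap with other genes limits that statement. Same-strand genes such as SNURF share 43.9% of its annotated exon bases and 78.1% of its canonical transcript, and a read within shared bases can be left uncounted. The 1912 annotated exon bases that SNRPN shares with no same-strand gene gave no more than that 1 count. Table-wide, 309 protein-coding genes shared all exon bases with same-strand genes, and 59.5% of them had 0 counts in all 9 libraries and 2.59% had at least 10 in every library. Among 10499 protein-coding genes without shared exon bases the percentages were 14.2% and 55.6%. SNURF itself had 1 count in WT replicate 1 and 0 elsewhere, but it shares exon bases with SNRPN, so the same limit holds for it. SNHG14, the long host transcript downstream, had between 0 and 3 counts per library. For PEG3, ZIM2 shares 12.9% of the exon bases on the same strand, and ENSG00000286125 shares 39.1% on the opposite strand. Whether counting used the strand is not given. Of 13 protein-coding genes with all exon bases shared with opposite-strand genes only, 92.3% had 0 counts in all 9 libraries.

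NNAT, which encodes a small membrane protein of developing neurons, lies inside BLCAP on chromosome 20 (37521206 to 37523690, ENSG00000053438). It had 6, 4 and 3 counts in WT, 8, 8 and 5 in 1-1 KO, and 6, 9 and 5 in 1-2 KO. Its mean was 0.118 ± 0.0294 CPM in WT, 0.169 ± 0.0401 CPM in 1-1 KO and 0.164 ± 0.0541 CPM in 1-2 KO (SD, n = 3 libraries). The lines overlapped at this depth. Without the filter on low counts, the adjusted p from edgeR was 0.564 in 1-1 KO and 0.637 in 1-2 KO. BLCAP, which surrounds it on the other strand and whose values were seen before it was chosen, rose from 31.0 ± 0.922 to 47.6 ± 0.47 CPM in 1-1 KO (SD, n = 3 libraries; log2 fold change 0.62, adjusted p = 4.5e-08 in edgeR) and was at 31.5 ± 1.52 CPM in 1-2 KO (adjusted p = 0.664 in edgeR).

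The partners of the 10 genes in their imprinted domains gave a wider view of the same loci. Of 46 domain partners, 24 were tested, of which 8 were higher and 11 lower in 1-1 KO, and 6 higher and 11 lower in 1-2 KO. In each knockout their median change was -0.01 on the log2 scale, beside 0.01 and 0.02 over all tested genes. The share called was 79.2% in 1-1 KO and 70.8% in 1-2 KO, beside 63.4% and 54.4% of all tested genes. DLK1, DIO3 and CPA4 are among the tested partners, although each passed the filter on low counts only through lines where it was higher. The counts and shares of called partners are therefore not read as a result about the partners. By the limits above, 19 partners were on in all 3 lines, 16 were off in all 3 and 0 were on in 1 line and off in another.

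In the SNRPN domain, SNRPN, SNURF, SNHG14 and NDN had 3 counts or fewer in every library. The limit from shared exons given above holds for SNRPN and SNURF. UBE3A, MKRN3 and MAGEL2 were on in all 3 lines. UBE3A, a ubiquitin ligase gene that is imprinted in neurons, fell from 357.4 ± 5.31 CPM in WT to 208.6 ± 1.21 in 1-1 KO (log2 fold change -0.78, adjusted p = 7.95e-11) and 310.6 ± 4.78 in 1-2 KO (log2 fold change -0.2, adjusted p = 7.5e-05; SD, n = 3 libraries, edgeR). MKRN3, which encodes a ring finger protein that holds back puberty, fell from 34.7 ± 0.822 to 16.9 ± 0.83 CPM in 1-1 KO (log2 fold change -1.03, adjusted p = 1.1e-09; SD, n = 3 libraries, edgeR). In 1-2 KO MKRN3 was at 31.0 ± 1.38 CPM (SD, n = 3 libraries; adjusted p = 0.0179 in edgeR), a call lost with scaling by library size alone (adjusted p = 0.114) and without WT replicate 1 (0.0521), WT replicate 2 (0.0556), 1-2 KO replicate 2 (0.0533) or 1-2 KO replicate 3 (0.0751). MAGEL2, whose protein works in endosomal recycling, rose instead, from 1.72 ± 0.273 CPM to 2.96 ± 0.194 in 1-1 KO and 5.46 ± 0.123 in 1-2 KO (SD, n = 3 libraries; adjusted p = 8.03e-05 and 3.38e-08 in edgeR). Paternally expressed genes of a single domain thus moved in opposite directions in these lines, with MKRN3 down and MAGEL2 up in 1-1 KO. Over chromosome 15 as a whole, tested genes had a median change of -0.21 on the log2 scale in 1-1 KO and 0.05 in 1-2 KO.

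In the MEG3 domain, MEG3 was at the floor in all 3 lines and DLK1 in WT and 1-2 KO, while DIO3 had low counts in every library. DLK1, a transmembrane ligand gene of fetal liver and hepatic progenitors, had 0 counts in each WT and 1-2 KO library and 14, 16 and 16 counts in 1-1 KO. It was chosen after its values were seen. Its level of 0.371 ± 0.0346 CPM in 1-1 KO (SD, n = 3 libraries) was under the limit of 1 CPM for an active gene, and it was at least 4.44-fold higher than in WT with WT set to 3 counts per library. Its p is not given, since it passed the filter on low counts only through the line where it was high. With the limit for on lowered to 0.1 CPM, DLK1 and CPA4 of the 46 partners counted as on in 1 line and off in another, as did 1069 genes of the whole table. DIO3, a thyroid hormone deiodinase gene also chosen after its values were seen, had 6, 6 and 5 counts in WT, 36, 27 and 39 in 1-1 KO and 17, 22 and 22 in 1-2 KO. The 3 lines did not overlap, with WT lowest, and DIO3 passed the filter on low counts only through the knockouts. MEG8, the noncoding RNA downstream of MEG3, had 0 or 1 count per library.

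At CDKN1C, the other genes of the domain did not share its rise in 1-1 KO. The following 3 were chosen after their values were seen. KCNQ1OT1, the paternally expressed antisense RNA of the domain, had 148, 133 and 88 counts in WT, 141, 122 and 150 in 1-1 KO and 232, 241 and 252 in 1-2 KO. It was not called in 1-1 KO (log2 fold change -0.02, adjusted p = 0.903 in edgeR) and was higher in 1-2 KO (log2 fold change 0.82, adjusted p = 5.01e-05 in edgeR). PHLDA2, a maternally expressed growth inhibitor gene, fell in 1-1 KO (log2 fold change -0.9, adjusted p = 0.000191), as did SLC22A18 (-0.49, adjusted p = 0.00015 in edgeR). In 1-2 KO their changes were -0.53 and -0.24, with adjusted p = 0.00995 and 0.0264 in edgeR. The first call was lost without 1-2 KO replicate 2 (adjusted p = 0.051), and the second without WT replicate 1 or 3 or 1-2 KO replicate 2 or 3 (adjusted p between 0.0555 and 0.12), with scaling by library size alone (0.094) and with DESeq2 on the 2 lines (0.0858).

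TFPI2, an imprinted protease inhibitor gene near PEG10 and SGCE, rose from 1.14 ± 0.126 CPM in WT to 4.24 ± 0.421 in 1-1 KO and 3.94 ± 0.379 in 1-2 KO (SD, n = 3 libraries; log2 fold change 1.89 and 1.79, adjusted p = 3.2e-08 and 8.34e-08 in edgeR). Next to MEST, COPG2 was chosen after its values were seen, and its end overlaps that of MEST on the other strand. COPG2 fell in 1-1 KO (log2 fold change -0.81, adjusted p = 7.23e-09 in edgeR) and was not called in 1-2 KO (log2 fold change 0.0, adjusted p = 0.942 in edgeR). Beside GRB10, both tested partners, DDC and COBL, fell in both knockouts, by 0.23 and 0.51 on the log2 scale in 1-1 KO and by 0.34 and 0.28 in 1-2 KO, so that the rise of GRB10 in 1-2 KO was not shared by them. HYMAI, the noncoding RNA that starts within PLAGL1, had between 0 and 4 counts per library.

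**Figure D2:**
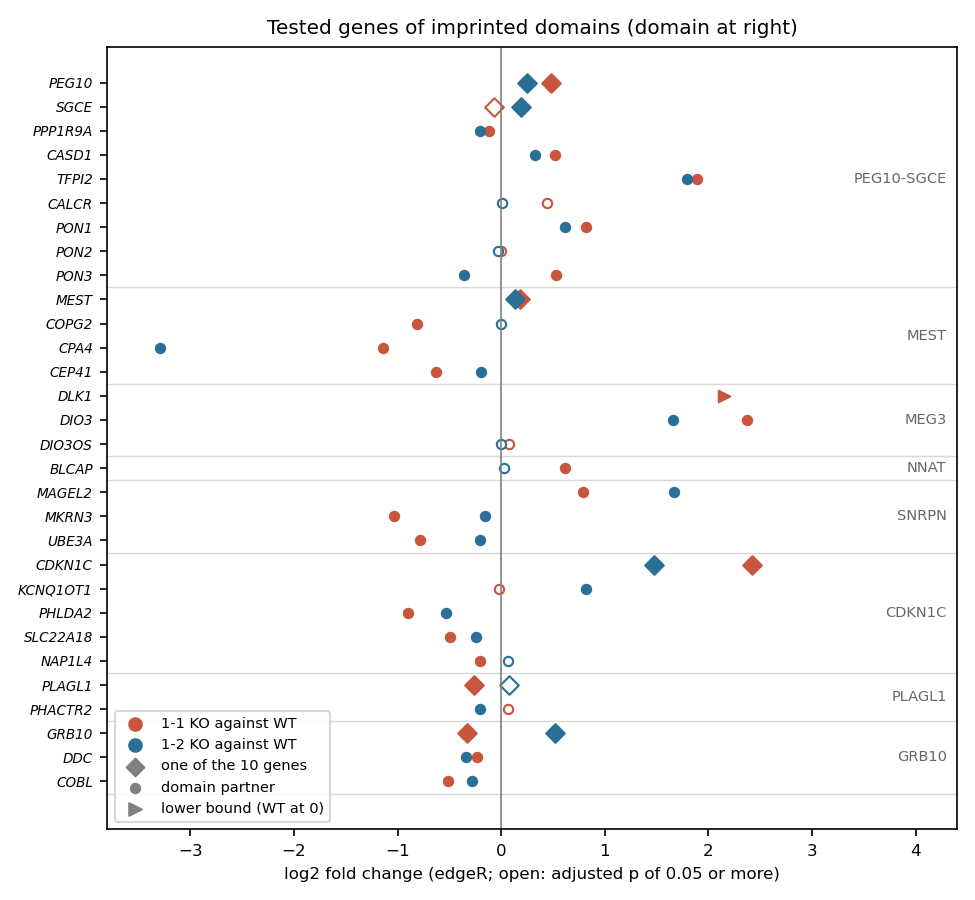
Change on the log2 scale of the tested genes of each imprinted domain, for 1-1 KO and 1-2 KO compared to WT. Diamonds are genes of the set of 10, circles are domain partners, open symbols have an adjusted p of 0.05 or more in edgeR, and the triangle is the lower bound for DLK1, which had 0 counts in WT and in 1-2 KO. In the CDKN1C domain CDKN1C lies at 2.42 and 1.48 while PHLDA2 lies at -0.9 and -0.53.

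All annotated protein-coding and long noncoding genes within 1 Mb of the 10 genes were then counted, 356 in all, of which 128 were tested. In 1-1 KO, 45 were higher and 32 lower than in WT, with a median log2 fold change of 0.07. The numbers in 1-2 KO were 46 and 25, with a median of 0.12. The share called was 60.2% and 55.5%, beside the 63.4% and 54.4% of all tested genes. The neighborhoods differed from each other. Around PEG3, which was off, 22 of 41 tested neighbors rose and 1 fell in 1-1 KO (median 0.43), whereas 17 were higher and 0 lower in 1-2 KO (median 0.28). Chromosome 19 as a whole had medians of 0.33 and 0.14. Around MEG3, 6 of 10 rose and 0 fell in each knockout, with medians of 0.35 and 0.31, beside 0.29 and 0.07 over chromosome 14. The 6 include DIO3 in both knockouts and DLK1 in 1-1 KO, which passed the filter on low counts only through knockout lines.

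Around MEST, 1 of 18 tested neighbors rose and 9 fell in 1-1 KO, with a median of -0.37. In 1-2 KO, 3 were higher and 5 lower, with a median of -0.05, while MEST itself rose in both knockouts. CPA4, among those lower in both, passed the filter on low counts only through WT. Around PLAGL1, 1 of 9 rose and 2 fell in 1-1 KO (median -0.04), and 0 rose and 8 fell in 1-2 KO (median -0.28). Chromosome 6 had medians of 0.0 in 1-1 KO and -0.27 in 1-2 KO over 952 tested genes, while PLAGL1 was at 0.08 in 1-2 KO. Around CDKN1C, 3 of 17 rose and 9 fell in 1-1 KO (median -0.25), whereas 8 were higher and 3 lower in 1-2 KO (median 0.12). Around PEG10 and SGCE, 6 of 10 rose and 1 fell in 1-1 KO (median 0.52), whereas 4 were higher and 2 lower in 1-2 KO (median 0.11). Around NNAT, 6 of 19 rose and 6 fell in 1-1 KO (median -0.02), whereas 8 were higher and 3 lower in 1-2 KO (median 0.09). The only tested neighbor of SNRPN was UBE3A. Near GRB10 only COBL, FIGNL1 and DDC were tested, and all 3 fell in both knockouts. Chromosome 7, which holds PEG10, SGCE, MEST and GRB10, had medians of -0.04 in 1-1 KO and 0.06 in 1-2 KO. Those of chromosome 11, with CDKN1C, were -0.03 and 0.05, and those of chromosome 20, with NNAT, -0.04 and 0.14. The part of chromosome-wide shifts in the changes of neighborhoods and of single genes was not tested.

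A further list held 34 other imprinted genes, 1 of which, ZNF264, is also a neighbor of PEG3 and is counted there too. Of these, 23 were tested, with 10 higher and 3 lower in 1-1 KO (median 0.14) and 8 higher and 6 lower in 1-2 KO (median 0.07). The background was 32.5% higher and 30.9% lower in 1-1 KO and 28.2% and 26.2% in 1-2 KO. The counts include GNAS-AS1 as higher in both knockouts and PEG13 as higher in 1-2 KO. Each passed the filter on low counts only through the line where it was highest, so the counts are not read as a result about this list. In this list, 20 were on in all lines, 9 were off in all and 0 were on in 1 line and off in another, but with the limit for on lowered to 0.1 CPM GNAS-AS1 and KCNK9 were. ZDBF2, a paternally expressed zinc finger gene, rose from 22.8 ± 0.0749 CPM to 46.1 ± 2.45 in 1-1 KO and 30.8 ± 0.747 in 1-2 KO (SD, n = 3 libraries; adjusted p = 4.79e-10 and 5.18e-06 in edgeR). IGF2R, whose product clears IGF2 from the cell surface, rose from 324.0 ± 7.33 to 453.6 ± 8.34 CPM in 1-1 KO and fell to 244.4 ± 10.3 CPM in 1-2 KO (SD, n = 3 libraries; adjusted p = 5.76e-08 and 5.31e-07 in edgeR). GNAS, which encodes the stimulatory G protein subunit, rose from 562.4 ± 15.2 to 734.0 ± 20.4 CPM in 1-1 KO and 773.9 ± 30.6 CPM in 1-2 KO (SD, n = 3 libraries; adjusted p = 9.14e-07 and 1.98e-07 in edgeR). GNAS-AS1, chosen after its values were seen, had 0 counts in each WT library, 25, 28 and 25 in 1-1 KO and 4, 2 and 3 in 1-2 KO, and was at least 7.52-fold higher in 1-1 KO than in WT with WT set to 3 counts per library. Like DLK1, it passed the filter only through the line where it was high.

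Factors that set or keep imprints were mostly on. Of a list of 20, 15 were on in all 3 lines and 4 off in all 3. Of the 15 that were tested, 6 were higher and 4 lower in 1-1 KO (median 0.02), and 8 higher and 1 lower in 1-2 KO (median 0.17), a share called of 66.7% and 60.0% beside 63.4% and 54.4% of all tested genes. DNMT3L counted as on in 1 line and off in another with the limit lowered to 0.1 CPM. SETDB1, the histone methyltransferase that acts with TRIM28 at imprints, fell from 53.2 ± 1.84 CPM to 30.9 ± 1.07 in 1-1 KO and 38.7 ± 2.14 in 1-2 KO (SD, n = 3 libraries; log2 fold change -0.78 and -0.46, adjusted p = 8.89e-09 and 2.38e-06 in edgeR). TET2, which oxidizes methylated cytosine, rose from 19.2 ± 1.3 to 34.7 ± 0.416 CPM in 1-1 KO and 22.9 ± 0.863 CPM in 1-2 KO (SD, n = 3 libraries; adjusted p = 1.21e-08 and 0.00217 in edgeR). DNMT3B, a DNA methyltransferase, rose from 17.2 ± 1.07 to 22.7 ± 0.543 CPM in 1-1 KO and 28.1 ± 1.28 CPM in 1-2 KO (SD, n = 3 libraries; adjusted p = 4.07e-05 and 1.84e-07 in edgeR). These are mRNA levels, and neither the proteins nor the methylation they act on were measured here.

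Finally, the tested genes whose pattern over the 9 libraries was most like that of a member were listed for the 4 members with the widest range of line means. Likeness was the root mean square difference of log2 CPM after each gene was centered on its own mean. For CDKN1C these genes were ZNF385B (0.148), ETV1 (0.176) and SEZ6L2 (0.181). For GRB10 they were FERMT2 (0.0413), LCA5 (0.0467) and KLF7 (0.0513). The genes nearest to PEG10 were TMEM245 (0.0208), PDXDC1 (0.0326) and TYMS (0.0334), and those nearest to PLAGL1 were CDC45 (0.0272), TRMT61B (0.0334) and FBXL19-AS1 (0.0405). None of these 12 genes is in the lists of imprinted genes used here. Those lists hold few of the 17207 tested genes, so that absence carries no weight.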

How the data were processed

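Total RNA of the 3 Huh-7 lines (3 libraries per line) was made into stranded mRNA libraries and sequenced in pairs. The authors aligned the reads to hg38 (annotation version 104) with STAR, and featureCounts gave the deposited table of raw read counts per gene, which is not normalized. Whether counting used the strand and how reads in overlapping genes were treated is not given in the sources used here. Gene positions came from GENCODE 44 on GRCh38, which held 60463 of the 60664 identifiers. Of 131 symbols in the gene lists, 126 matched 1 identifier. HERC3 matched 2 and was not used, and PEG3-AS1, PWAR6, PWARSN and IPW matched none.

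Counts were tested with edgeR 4.0.16 in R 4.3.3, with filterByExpr (minimum count 10, minimum total 15), TMM normalization and all 9 libraries in 1 fit. Of the genes, 17207 were tested, and the biological coefficient of variation was 5.55%. Standard errors were the log2 fold change divided by the square root of the F statistic. Alternatives were DESeq2 1.42.0, other scalings, filters, thresholds, windows and limits, a term for the replicate number and each library left out. Floors and Poisson intervals cover counting error only. The steps were tested on simulated data. The rest was done in Python 3.11.15 (pandas 2.3.3, numpy 2.4.6, matplotlib 3.10.9).

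The 10 genes and the lists were chosen with earlier results of these data known. Besides the 10, the text names the 2 genes per list and knockout with the smallest adjusted p, genes on in 1 line and off in another, and the nearest genes in pattern. Other genes were named after their values were seen or for their place beside a member. Libraries of the same line differed by more than counting noise (chi-square divided by its degrees of freedom from 1.97 to 14.4), so none was taken as a duplicate.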

Additional observations from a re-analysis of the deposited data

Results flagged for a closer look

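GRB10 was called in opposite directions in the knockouts. It was lower than WT in all 3 libraries of 1-1 KO and higher in all 3 of 1-2 KO, and the direct comparison of 1-2 KO with 1-1 KO in edgeR gave a log2 fold change of 0.84 (adjusted p = 4.37e-10). When any 1 library was left out, the difference lay between 0.82 and 0.88.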

How the results depend on the processing

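Of the changes of single members under an alternative, 316 kept their direction and side of the threshold, 5 lost their call and 3 gained one. MEST in 1-2 KO lost its call with DESeq2 on only the 2 lines compared (log2 fold change 0.12, adjusted p = 0.0782), with an adjusted p under 0.01, and without 1 of 3 libraries. SGCE in 1-1 KO was called without WT replicate 1 (-0.11, adjusted p = 0.0499 in edgeR), and PLAGL1 in 1-2 KO with scaling by library size alone (0.14, adjusted p = 0.0268 in edgeR) and without WT replicate 1 (0.13, adjusted p = 0.0485 in edgeR). The cause was not tested. No direction reversed.

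The order below is 1-1 KO compared to WT, 1-2 KO compared to WT and 1-2 KO compared to 1-1 KO. A change over 1 on the log2 scale left 1, 1 and 0 of the 6 tested members and 5, 4 and 2 of the 24 tested domain partners. It left 3, 3 and 4 of the 23 tested other imprinted genes and 0, 0 and 0 of the 15 tested imprint maintenance factors. Of the 128 tested neighbors within 1 Mb, 13, 8 and 9 remained. The share of all tested genes called with such a change was 13.4%, 11.7% and 14.1%. The partner counts and the neighbor counts include DLK1, DIO3 and CPA4, which had low counts. The counts of other imprinted genes include GNAS-AS1 in each comparison and PEG13 in both comparisons with 1-2 KO. Each of these genes passed the filter on low counts only through lines where it was higher. The counts that include them are therefore not read as a result. A window of 500 kb gave 28, 33 and 39 called neighbors of 55 tested, and 2 Mb gave 181, 149 and 171 of 283. These stand beside 77, 71 and 79 of 128 at 1 Mb, since the windows hold different numbers of genes. Of all tested genes, 63.4%, 54.4% and 65.3% were called. With each library left out, the called members numbered 5 to 6, 4 to 6 and 5 to 5, the partners 17 to 19, 13 to 18 and 14 to 19, the other imprinted genes 11 to 14, 11 to 13 and 14 to 16, the factors 10 to 10, 8 to 10 and 9 to 12, and the neighbors 70 to 81, 61 to 69 and 68 to 83. The log2 fold change of CDKN1C then lay between 2.29 and 2.57, 1.42 and 1.52, and -1.09 and -0.81.

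The replicate numbers did not pair the samples (correlation of deviations between -0.152 and 0.0372). With the replicate number as a block, 5, 5 and 5 members, 19, 17 and 17 partners, 13, 13 and 15 other imprinted genes, 10, 9 and 10 factors and 75, 67 and 77 neighbors were called.

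At these depths, PEG3, MEG3, SNRPN and NNAT were too low for a comparison of the lines, and CDKN1C rested on 12 to 93 counts per library. Scaling by library size alone moved the median log2 fold change of all tested genes to 0.06 in 1-1 KO and 0.07 in 1-2 KO.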
